A study of Rattus norvegicus with 12 samples.

Results

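Osteopontin, encoded by Spp1, was followed with 7 other genes of bone formation in cultured rat cells: Ibsp, Alpl, Phex, Runx2, Sp7, Mef2c and Pth1r. These 8 genes were chosen by symbol, of 20400 genes listed in either of 2 deposited gene tables, with their values in these libraries already known, so their levels and differences are given as description and not as tests. All 8 are listed in the table of BF cells and 6 in the table of BMSCs, where Ibsp and Phex are not listed. RNA sequencing covered 12 libraries in 4 groups of 3 replicates, all labelled wild-type, bone marrow and kept in chondrogenic induction medium. BMSC-CT are bone marrow mesenchymal stem cells that received TGF-beta1 after 1 week of CTGF, the connective tissue growth factor, and BMSC-C are their controls. BF-D were given docetaxel, a drug that stabilizes microtubules, and BF-C are their controls. The sample labels call BF cells fibrotic BMSCs, whereas the series design speaks of induced fibrotic chondrocytes; how they were made, the docetaxel dose and its duration are not given in the sources used here. Nothing in the labels says that replicates were separate cultures or animals, so p-values measure only the spread between these libraries, which may be technical.

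Bone is built when osteoblasts lay down type I collagen and load it with calcium phosphate crystals. Runx2 is the transcription factor that commits mesenchymal cells to this fate and also acts in maturing cartilage, Sp7 (osterix) acts downstream of it, and Mef2c drives chondrocyte hypertrophy in mouse. Alpl, tissue-nonspecific alkaline phosphatase, removes pyrophosphate, an inhibitor of crystal growth, while Phex is an endopeptidase of osteoblasts and osteocytes whose loss causes phosphate wasting. Osteopontin and bone sialoprotein (Ibsp) are acidic phosphoproteins of the mineralized matrix that bind integrins; osteopontin restrains crystal growth, binds CD44 and is also made in quantity by macrophages and osteoclasts. Pth1r is the receptor of parathyroid hormone and parathyroid hormone-related protein.

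Spp1 and Ibsp lie in a cluster of mineralized-matrix genes on rat chromosome 14, where the RefSeq annotation of GRCr8 gives the order Spp1, Mepe, Ibsp, Dmp1 and Dspp. RefSeq promoters of GRCr8 were found for 5 of the 8 genes. The 250 bases before the start site are shown for Spp1, whose RNA stood higher in the treated group of both comparisons, for Ibsp of the same cluster, which had almost no reads, for the more upstream of both Runx2 starts, and for Alpl. Capitals mark the 6-letter core bound by Runx proteins (TGTGGT with the variant form TGCGGT, which on the other strand read ACCACA with the variant form ACCGCA) or a CCAAT box (ATTGG on the other strand).
Spp1, chr14:5619805-5620054, minus strand: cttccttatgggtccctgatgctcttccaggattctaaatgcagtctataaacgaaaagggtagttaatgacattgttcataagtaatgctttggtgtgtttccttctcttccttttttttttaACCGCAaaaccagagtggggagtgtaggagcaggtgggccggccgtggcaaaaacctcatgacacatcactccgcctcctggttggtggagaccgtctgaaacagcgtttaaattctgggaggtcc
Ibsp, chr14:5757243-5757492, minus strand: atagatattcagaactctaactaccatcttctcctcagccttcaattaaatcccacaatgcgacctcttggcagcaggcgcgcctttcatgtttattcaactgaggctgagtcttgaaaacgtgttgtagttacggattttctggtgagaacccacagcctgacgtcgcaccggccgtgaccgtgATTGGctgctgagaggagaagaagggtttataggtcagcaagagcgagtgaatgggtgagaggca
Runx2, chr9:23664808-23665057, plus strand: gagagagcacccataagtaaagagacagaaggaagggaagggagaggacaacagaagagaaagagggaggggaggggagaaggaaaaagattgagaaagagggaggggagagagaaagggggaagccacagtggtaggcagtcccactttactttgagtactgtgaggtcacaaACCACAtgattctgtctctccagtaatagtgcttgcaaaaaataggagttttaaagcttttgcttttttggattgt
Alpl, chr5:155289786-155290035, minus strand: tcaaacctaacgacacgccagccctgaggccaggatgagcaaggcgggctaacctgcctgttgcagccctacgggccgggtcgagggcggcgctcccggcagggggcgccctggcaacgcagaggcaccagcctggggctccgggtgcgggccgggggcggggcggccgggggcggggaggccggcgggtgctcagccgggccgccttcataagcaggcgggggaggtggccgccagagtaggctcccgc
The Runx core in the Spp1 window starts 126 bases before the start site and the one in the Runx2 window 76 bases before it. The Ibsp window holds an inverted CCAAT box 65 bases before the start site. Both strands were searched: 19.0% of 33469 promoter windows of the same length hold a Runx core and 34.0% a CCAAT box, and none of the windows shown holds both. The Alpl window holds neither and has a GC content of 76%, against 46.8% for Spp1. Neither motif occurs in the windows of Pth1r and of the more downstream Runx2 start, which are not shown. A match is a description of the sequence and not a measured binding site.

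Libraries held 15580310 to 19870047 reads. Each table gives reads divided by 1 size factor per library (normalized counts), and the tables were scaled separately, so levels across all 4 groups are given as RPM, a gene's reads scaled to 1000000 reads in its library, and no test was run across tables. One library stood apart in each treated group: BMSC-CT replicate 3 had reads on 14621 genes, against at least 16100 in the other libraries, and 13.3% of all reads there came from genes of ribosomal proteins, a share that stayed at or below 5.76% elsewhere. In BF-D replicate 2 those genes took 2.57% of reads, and in no other BF library more than 1.65%. Stromal markers summed to 4929 to 9424 RPM in BMSC-CT and 4326 to 4682 in BMSC-C, and to 39652 to 46949 in BF-D and 52074 to 52961 in BF-C. Col1a1 carried these sums; without it they were 540 to 1079 RPM in BMSC-CT and 2687 to 3027 in BMSC-C, and 4588 to 5217 in BF-D and 5476 to 5545 in BF-C. Of the 10 stromal markers tested in BMSC-CT, limma called Pdgfra, Thy1, Cxcl12 and Prrx1 lower and Col1a1 and Eng higher, beside 18.6% of all genes called, 7.7% higher and 10.9% lower. In BF-D limma called 0 of the 10, with 4 lower at an unadjusted p under 0.05, 1 lower by DESeq2 and 0 by edgeR. Without BF-D replicate 2 limma called 3 lower and 0 higher, beside 0.811% and 0.729% of all genes. Chondrocyte markers summed to 1336 to 3182 RPM in BMSC-CT, 1933 to 3008 in BMSC-C, 1514 to 1660 in BF-D and 1276 to 1349 in BF-C, with Col2a1 and Matn1 not listed for BMSCs and Acan not listed for BF cells, and with Col9a1, Matn3 and Col10a1 without reads in BMSC-CT. Mmp13, a collagenase, carried those sums; without it they were 37.8 to 156 RPM in BMSC-CT and 34.5 to 53.2 in BMSC-C, and 357 to 422 in BF-D and 508 to 540 in BF-C, so the order of the BF groups turned round. In BMSC-CT limma called 1 of 6 chondrocyte markers tested, beside 18.6% of all genes. It was Col11a1, higher (log2 fold change 1.52, limma adjusted p = 0.0408) and called in 13 of 19 alternative settings. In BF-D limma called 0 of 11 chondrocyte markers, with 1 higher and 1 lower both before adjustment (p under 0.05) and by DESeq2, 0 by edgeR, and a list median log2 fold change of -0.27.

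Spp1 was by far the most abundant of the 8 genes and the one that stood higher in the treated group of both comparisons. Spp1 (ENSRNOG00000043451) had 14057, 14371 and 15398 normalized counts in the 3 BMSC-CT libraries, against 7184, 6177 and 7095 in BMSC-C. The groups did not overlap, and the lowest BMSC-CT library lay above the highest BMSC-C library. The means were 14609 ± 702 in BMSC-CT and 6819 ± 557 in BMSC-C (SD, n = 3 each), a ratio of 2.14 and a log2 fold change of 1.10 (SE 0.19) on the log2(normalized count + 1) scale used for every fold change here. In RPM the values were 879, 832 and 553 in BMSC-CT, against 493, 428 and 466 in BMSC-C, a ratio of means of 1.63. The groups were separate on that scale too, and BMSC-CT replicate 3 was the lowest of its group there and the highest on the other. Scaling to total reads gave a log2 fold change of 0.68, with the median of all genes at -0.53, and quantile normalization gave 0.66, with that median at 0.08, where the authors' normalization put it at -0.15. Without BMSC-CT replicate 3 it was 1.06. These are bulk samples, in which a change in the number of cells of a type and a change in RNA per cell cannot be told apart.

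In BF cells Spp1 had 2432, 3046 and 2584 normalized counts in BF-D, against 1115, 1161 and 1250 in BF-C. No BF-D library came near the BF-C range. The means were 2687 ± 320 in BF-D and 1175 ± 68.5 in BF-C (SD, n = 3 each), a ratio of 2.29 and a log2 fold change of 1.19 (SE 0.11). BF-D replicate 2 was the highest library, and without it the log2 fold change was 1.09. Only 2 genes of 17076 tested with limma passed an adjusted p of 0.05 in this comparison, and Spp1 was one; the other was AABR07052758.1, which carries a clone-based name, with a log2 fold change of -3.53 (SE 0.32). With any single library other than BF-D replicate 2 left out, Spp1 did not pass, at log2 fold changes between 1.15 and 1.26.

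Across the 4 groups the order for Spp1 was BMSC-CT, BMSC-C, BF-D and BF-C, with 755 ± 176, 462 ± 32.5, 163 ± 19.3 and 70.1 ± 4.45 RPM, and no neighbouring groups overlapped. Per kilobase of the deposited gene length, Spp1 ranked 231st of 18616 listed genes in BMSC-CT and 284th in BMSC-C, and 746th of 19355 in BF-D and 1627th in BF-C. On that per-length scale it stood at 497 ± 116 RPM per kilobase in BMSC-CT, where the next of the 8 genes, Alpl, stood at 1.79 ± 0.0802. Ibsp, in the same gene cluster, was close to absent: 0, 0 and 1 reads in the BF-D libraries, against 2, 0 and 0 in BF-C. In the authors' deposited table of KEGG terms, Spp1 was 1 of 135 genes under PI3K-Akt signaling for BMSC-CT, of which 43 were higher and 92 lower. For BF-D it was 1 of 13 under ECM-receptor interaction (4 higher, 9 lower) and 1 of 32 under human papillomavirus infection (19 higher, 13 lower).

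**Figure D1:**
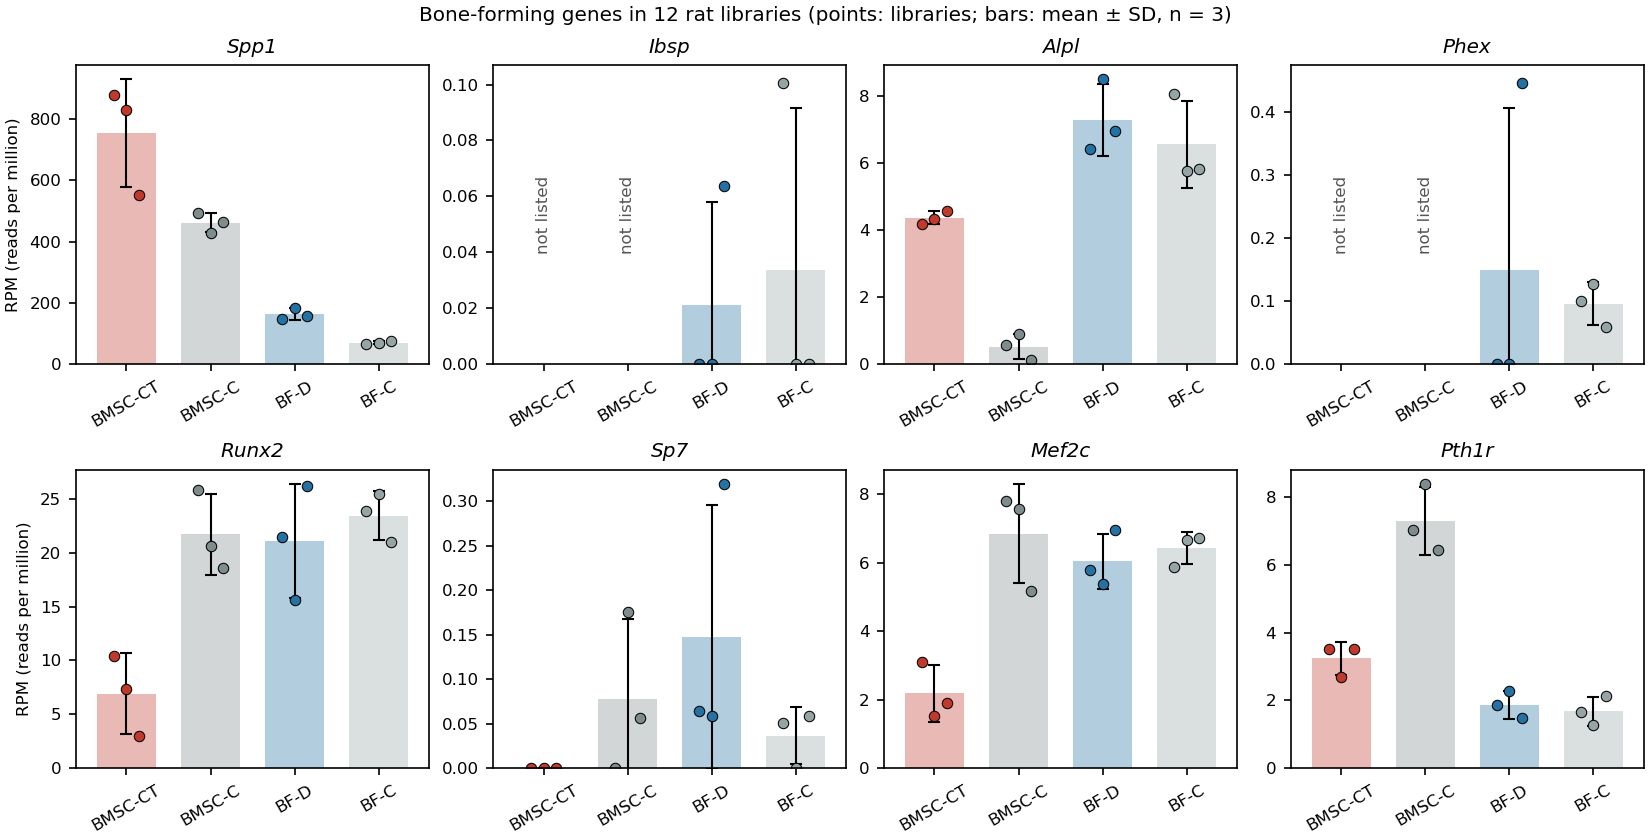
Levels of the 8 genes as RPM (vertical axes, linear, each panel with its own scale) in BMSC-CT, BMSC-C, BF-D and BF-C; points are libraries, bars are means and error bars SD (n = 3), cut at 0 where the SD exceeds the mean. Spp1 is highest in BMSC-CT and lowest in BF-C, Alpl is near 0 in BMSC-C alone, Runx2 and Mef2c are lowest in BMSC-CT, and Ibsp, Phex and Sp7 stay under 0.5 RPM in every library of the tables that list them.

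Osteopontin is also a product of macrophages and osteoclasts, and markers of both were read beside it. All 16 macrophage markers were listed for BMSCs, and they summed to 10502 to 13729 RPM in BMSC-CT, against 8799 to 10555 in BMSC-C, ranges that overlap slightly. Lyz2 made up most of the BMSC-CT sum. Without it the sums were 3609 to 4429 RPM in BMSC-CT and 4939 to 6013 in BMSC-C, separate and in the other order on that scale. Scaling to total reads put the median log2 fold change of all genes at -0.53, against -0.15 under the authors' normalization. The sums were not taken in normalized counts, so their order on that other scale is not given. Adgre1 was the largest marker besides Lyz2 in BMSC-C, at 46426 ± 5183 normalized counts there and 17359 ± 6492 in BMSC-CT. Cd68, Tyrobp and Laptm5 averaged 14587 ± 4950, 18752 ± 14452 and 15542 ± 5544 in BMSC-CT, against 4060 ± 858, 5512 ± 1229 and 6486 ± 1281 in BMSC-C. Tyrobp was not called (log2 fold change 1.52, limma adjusted p = 0.0860). Without BMSC-CT replicate 3 its log2 fold change was 0.93 (limma adjusted p = 0.0113). Of the 16 markers, 6 lay higher and 8 lower in BMSC-CT without overlap of the groups, beside 23.3% and 28.9% of all genes. Among these markers 4 rose and 3 fell in BMSC-CT (limma, adjusted p under 0.05): Csf1r, Cd68, Lyz2 and Laptm5 rose and Adgre1, Cd163 and Cd74 fell, beside 18.6% of all genes called, and the list median log2 fold change was -0.81, against -0.15 for all genes. Csf1r was called in all 19 alternative settings, Cd163 in all 18 in which it could be fitted, and the others in 14 to 17 of the 19. For BF cells 12 of the 16 were listed, with Cd163, C1qa, C1qb and C1qc not listed and Mrc1 without reads in BF-C, and they summed to 58.3 to 64.9 RPM in BF-D, against 42.2 to 44.1 in BF-C; Cd14 was the largest part, and without it the sums were 40.6 to 45.6 in BF-D and 21.8 to 25.6 in BF-C. None of the 12 passed limma's adjusted p in BF-D. At an unadjusted p under 0.05, 6 were higher, while DESeq2 called 3 higher and edgeR 0. Limma without BF-D replicate 2 called 3 higher and 0 lower, beside 0.729% and 0.811% of all genes. Of the 12, 6 lay higher and 0 lower in BF-D without overlap of the groups, beside 7.78% and 9.04% of all genes. Mrc1 and Tyrobp were among them, at means of only 5.20 and 7.81 normalized counts in BF-D. The list median log2 fold change was 0.68, against -0.0044 for all genes. Lyz2, a lysozyme of macrophages, averaged 136 ± 31.3 normalized counts in BF-D and 45.1 ± 4.47 in BF-C (SD, n = 3 each; log2 fold change 1.55, limma adjusted p = 0.230). Osteoclast markers summed to 359 to 398 RPM in BMSC-CT, against 178 to 199 in BMSC-C. Ctsk was the largest part, and without it the sums were 111 to 143 in BMSC-CT and 79.4 to 83.6 in BMSC-C. Acp5 and Ctsk rose, 2 of 6 tested beside 18.6% of all genes, called in 15 and 16 of the 19 settings. Of the 4 not called, Oscar (log2 fold change 0.64) and Atp6v0d2 (0.19) lay higher and Ocstamp (-2.74) and Tnfrsf11a (-1.37) lower. Without BMSC-CT replicate 3 Ocstamp was called lower (limma adjusted p = 0.0124), beside 43% of all genes called in that fit. Calcr, Dcstamp and Nfatc1 were not listed. In BF cells that sum was 154 to 218 in BF-D, against 158 to 170 in BF-C, with Ocstamp not listed either. The part of these cell types in the Spp1 values was not tested.

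**Figure D2:**
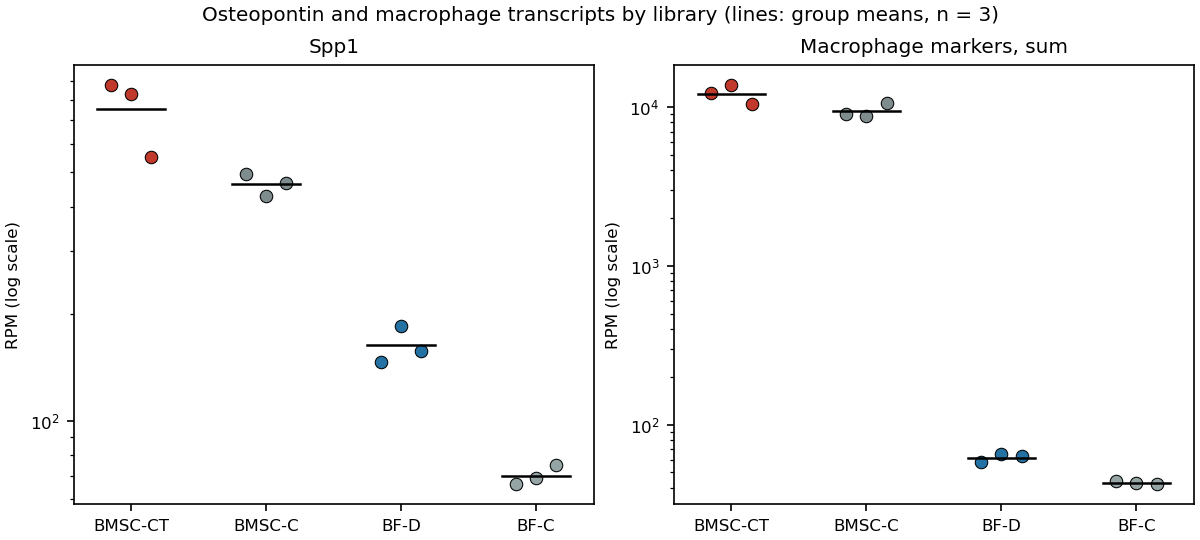
Spp1 (left) and the sum of the macrophage markers (right) in each library as RPM on log axes; lines are group means (n = 3). Both are higher in BMSC than in BF cells, but macrophage markers differ by more: 12143 in BMSC-CT against 62.1 in BF-D on average, where Spp1 had 755 and 163. In RPM, the higher macrophage sum in BMSC-CT than in BMSC-C turns round without Lyz2, and sums were not taken in normalized counts. Adgre1, lower in BMSC-CT, is the largest of the rest in BMSC-C.

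Among other mineralized-matrix proteins, collagen and a collagen-binding glycoprotein rose in BMSC-CT and an inhibitor of calcification fell. Of 7 genes tested with limma, 2 rose and 1 fell, beside 18.6% of all genes called in this comparison, 7.7% higher and 10.9% lower; the median log2 fold change of the list was 0.24, against -0.15 for all genes tested. Col1a1, which encodes the alpha-1 chain of bone's chief collagen, averaged 126169 ± 6370 normalized counts in BMSC-CT and 24234 ± 2703 in BMSC-C (SD, n = 3 each; log2 fold change 2.39, SE 0.24, limma adjusted p = 0.00200). Sparc, osteonectin, averaged 89620 ± 5973 in BMSC-CT and 21673 ± 3261 in BMSC-C (log2 fold change 2.06, SE 0.24, limma adjusted p = 0.00327). Matrix Gla protein, encoded by Mgp, which keeps soft tissue from calcifying, averaged 4223 ± 2071 in BMSC-CT and 27832 ± 5184 in BMSC-C (log2 fold change -2.81, SE 0.37, limma adjusted p = 0.00504). All 3 held in the 19 alternative settings. Of the 4 not called, Col1a2 (log2 fold change 1.76) and Bgn (0.24) lay higher and Bglap (-0.96) and Ifitm5 (-0.67) lower. Bglap and Ifitm5 had few reads, with means of 0.352 and 3.23 normalized counts in BMSC-CT, against 1.94 and 6.87 in BMSC-C. Dmp1, Dspp and Omd were not listed and Mepe was too low to test. In BF-D none of 6 tested genes was called, with 1 lower at an unadjusted p under 0.05, and edgeR and DESeq2 called 0. Without BF-D replicate 2 Col1a1 and Sparc were called lower (log2 fold changes of -0.22 and -0.20), beside 0.811% of all genes.

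Among osteopontin's receptors and the enzymes that cut or cross-link it, an integrin chain and both proteases named here fell in BMSC-CT while a transglutaminase rose. Of 13 tested with limma, 1 rose and 3 fell, beside 18.6% of all genes called, with a list median log2 fold change of -0.89. Itga8, the alpha chain of an integrin that binds osteopontin, averaged 7.89 ± 3.44 normalized counts in BMSC-CT and 960 ± 264 in BMSC-C (SD, n = 3 each; log2 fold change -6.79, SE 0.40, limma adjusted p = 0.000387). The proteases Mmp3 and Mmp9, both known to cleave osteopontin, fell by 3.78 (SE 0.28) and 3.62 (SE 0.33) on the log2 scale (limma adjusted p = 0.000827 and 0.00157). Tgm2, a transglutaminase that cross-links matrix proteins including osteopontin, rose to 3910 ± 446 in BMSC-CT, against 906 ± 278 in BMSC-C (log2 fold change 2.14, SE 0.26, limma adjusted p = 0.00388). Cd44 averaged 14250 ± 3847 in BMSC-CT and 14262 ± 1973 in BMSC-C. Without BMSC-CT replicate 3 the list gave 2 higher and 6 lower and a median of -0.20, beside 43% of all genes called in that fit. In BF-D limma called 0 of 14; before adjustment, p was under 0.05 for 3 higher genes and 1 lower one, and DESeq2 called 1 higher, edgeR 0. Without BF-D replicate 2, beside 1.54% of all genes (0.729% higher and 0.811% lower), 4 were called higher: Mmp9 (log2 fold change 0.61), Itga8 (0.50), Mmp3 (0.30) and Cd44 (0.26).

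Alpl stood higher in BMSC-CT than in BMSC-C and differed little between the BF groups. Alpl (ENSRNOG00000013954) had 66.9, 74.9 and 127 normalized counts in BMSC-CT, against 8.13, 12.7 and 1.73 in BMSC-C. These come from 74, 71 and 79 reads in BMSC-CT and 10, 15 and 2 reads in BMSC-C, so the BMSC-C values are imprecise although the groups are well apart. The means were 89.7 ± 32.8 in BMSC-CT and 7.52 ± 5.50 in BMSC-C (SD, n = 3 each), a ratio of 11.9 and a log2 fold change of 3.64 (SE 0.68). Over the alternative settings it ran from 2.96 to 4.14.

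In BF cells Alpl had 106, 141 and 114 normalized counts in BF-D, against 136, 97.2 and 97.3 in BF-C. The ranges overlapped, and the log2 fold change was 0.14 (SE 0.20). In RPM, Alpl averaged 7.29 ± 1.08 in BF-D and 6.56 ± 1.30 in BF-C, which overlapped, then 4.36 ± 0.195 in BMSC-CT and 0.517 ± 0.385 in BMSC-C (SD, n = 3 each). Both BMSC groups lay below every BF library and apart from each other. Phex had 0, 0 and 7 reads in the BF-D libraries, against 2, 2 and 1 in BF-C, so its whole BF-D value came from replicate 3.

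Of 12 other genes of phosphate handling and mineral deposition tested in BMSC-CT, 3 rose and 1 fell, beside 18.6% of all genes called, with a list median log2 fold change of -0.24; without BMSC-CT replicate 3, 3 were higher and 3 lower, beside 43%, and the median was 0.21. Phospho1, a phosphatase that frees phosphate inside matrix vesicles, averaged 495 ± 176 normalized counts in BMSC-CT and 170 ± 50.8 in BMSC-C (SD, n = 3 each; log2 fold change 1.52, SE 0.37, limma adjusted p = 0.0346). Anxa5 and Anxa6, calcium-binding annexins of those vesicles, rose by 1.29 (SE 0.24) and 1.18 (SE 0.26) on the log2 scale (limma adjusted p = 0.0161 and 0.0278). Fgf23, the phosphate-wasting hormone of osteocytes, had 0 reads in every BMSC-CT library, against 3, 5 and 3 reads in BMSC-C; it is the gene called lower, on reads too few for a fold, and it was called in 8 of 17 alternative settings. Among the settings that lost that call were edgeR (adjusted p = 0.0748) and the fits without BMSC-CT replicate 1 or 2 or any 1 BMSC-C library (limma adjusted p between 0.0517 and 0.123). The 3 rises lost their calls without BMSC-CT replicate 2 or any 1 BMSC-C library, with limma adjusted p between 0.0588 and 0.129, and Phospho1 also with scaling to total reads (0.0553). In BF-D limma, edgeR and DESeq2 called 0 of 12, with 1 higher at an unadjusted p under 0.05. Without BF-D replicate 2 the phosphate transporter gene Slc20a1 was called higher (log2 fold change 0.43), beside 0.729% of all genes.

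Runx2 and Mef2c were lowest in BMSC-CT, and Sp7 was near absent in all groups. Runx2 (ENSRNOG00000020193) had 166, 128 and 82.1 normalized counts in BMSC-CT, against 376, 298 and 283 in BMSC-C. The groups did not overlap, and the lowest value was that of BMSC-CT replicate 3. The means were 125 ± 42.2 in BMSC-CT and 319 ± 50.1 in BMSC-C (SD, n = 3 each), a log2 fold change of -1.39 (SE 0.33). It was -1.11 without BMSC-CT replicate 3 and -0.68 after removal of each library's trend with gene length; Runx2 is deposited with a length of 5641 bases.

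Mef2c (ENSRNOG00000033134) had 49.7, 26.4 and 53.1 normalized counts in BMSC-CT, against 114, 109 and 78.9 in BMSC-C. The groups did not overlap. The means were 43.1 ± 14.6 in BMSC-CT and 101 ± 19.0 in BMSC-C (SD, n = 3 each), a log2 fold change of -1.25 (SE 0.40), which was -0.47 after removal of the length trend and -0.69 after quantile normalization. Its deposited length is 6451 bases. Sp7 had 0 reads in each BMSC-CT library, which over that group allows up to 0.0584 RPM, against 0, 3 and 1 reads in BMSC-C, and 1, 1 and 5 reads in BF-D, against 1, 0 and 1 in BF-C.

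In BF cells the transcription factors did not separate by treatment. Runx2 had 355, 258 and 430 normalized counts in BF-D, against 402, 428 and 350 in BF-C, a log2 fold change of -0.20 (SE 0.19) that was -0.00 without BF-D replicate 2. Mef2c had 95.8, 89.2 and 114 in BF-D, against 99.1, 112 and 112 in BF-C, a log2 fold change of -0.12 (SE 0.17). Both sets of ranges overlapped. In RPM, Runx2 averaged 6.91 ± 3.75 in BMSC-CT, below the overlapping 21.7 ± 3.73 in BMSC-C, 21.1 ± 5.32 in BF-D and 23.5 ± 2.27 in BF-C. Mef2c followed the same order of separation, with 2.18 ± 0.825 in BMSC-CT, against 6.85 ± 1.46 in BMSC-C, 6.04 ± 0.813 in BF-D and 6.43 ± 0.466 in BF-C.

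Other osteoblast transcription factors and Runx2 partners gave 0 higher and 2 lower of 16 tested in BMSC-CT by limma, a share below the 18.6% of all genes called (10.9% lower), with a list median log2 fold change of -0.77. Fosl1, an AP-1 subunit, averaged 71.7 ± 4.18 normalized counts in BMSC-CT and 621 ± 48.8 in BMSC-C (SD, n = 3 each; log2 fold change -3.10, SE 0.22, limma adjusted p = 0.000796). Twist2, a repressor of Runx2 activity, averaged 1497 ± 493 in BMSC-CT and 3328 ± 321 in BMSC-C (log2 fold change -1.20, SE 0.27, limma adjusted p = 0.0293). Cbfb, the partner that Runx proteins need to bind DNA firmly, averaged 509 ± 158 in BMSC-CT and 866 ± 95.1 in BMSC-C and was not called. At an unadjusted p under 0.05, 1 gene was higher and 7 were lower, and limma without BMSC-CT replicate 3 also called 1 higher and 7 lower, beside 43% of all genes in that fit. In the list of Mef2 relatives and class IIa histone deacetylases, which bind and repress Mef2 proteins, 1 of 7 fell, beside 10.9% of all genes: Hdac9, with 1, 4 and 0 reads in BMSC-CT and a mean of 14.8 ± 4.26 normalized counts in BMSC-C (limma adjusted p = 0.0363, and 0.0579 by edgeR). The Twist2 call was lost without BMSC-CT replicate 2 or any 1 BMSC-C library. Hdac9 was called in 12 of 18 alternative settings, and the losses included the fits without BMSC-CT replicate 1 or any 1 BMSC-C library. In these fits limma adjusted p lay between 0.0621 and 0.146 over both genes. In BF-D limma, edgeR and DESeq2 called 0 of 16 and 0 of 7, with 1 transcription factor higher and no Mef2 relative at an unadjusted p under 0.05. Without BF-D replicate 2 Twist2 was called higher (log2 fold change 0.24), beside 0.729% of all genes.

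**Figure D3:**
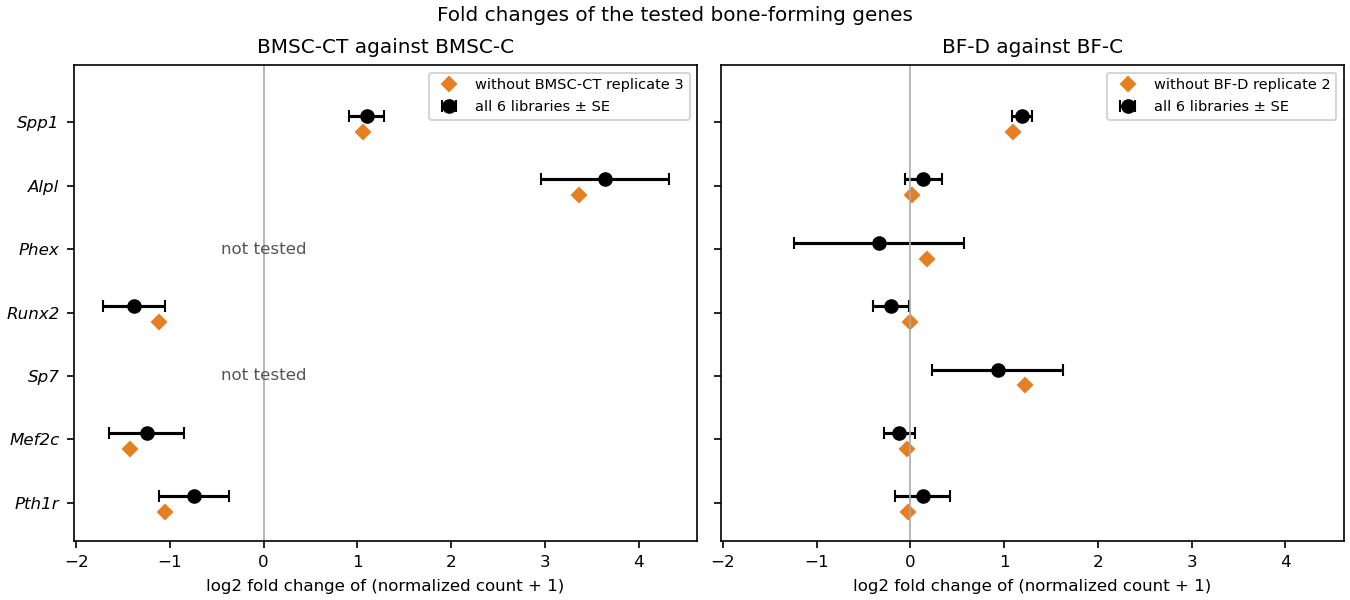
Log2 fold changes of normalized counts + 1 (horizontal axes) for those of the 8 genes that could be fitted, BMSC-CT against BMSC-C (left) and BF-D against BF-C (right); black points are all 6 libraries with the SE, orange diamonds the value without the library that stood apart. Spp1 is to the right of 0 in both panels (1.10 and 1.19), Alpl in the left one (3.64), and Runx2, Mef2c and Pth1r lie left of 0 in the left one (-1.39, -1.25 and -0.74) and near 0 in the right one (-0.20, -0.12 and 0.13).

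Pth1r (ENSRNOG00000020948) had 56.1, 46.4 and 98.2 normalized counts in BMSC-CT, against 102, 121 and 97.9 in BMSC-C. The groups overlapped through a single library, BMSC-CT replicate 3. The means were 66.9 ± 27.6 in BMSC-CT and 107 ± 12.2 in BMSC-C (SD, n = 3 each), a log2 fold change of -0.74 (SE 0.37) that was -1.05 without that library. In BF cells it had 30.9, 37.8 and 24.1 in BF-D, against 28.0, 21.4 and 35.4 in BF-C, with a log2 fold change of 0.13 (SE 0.29) and overlapping ranges. In RPM it averaged 3.24 ± 0.479 in BMSC-CT and 7.28 ± 1.00 in BMSC-C, which did not overlap, and 1.87 ± 0.409 in BF-D and 1.68 ± 0.427 in BF-C, which did and lay below both BMSC groups.

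Among genes that act with or after the parathyroid hormone receptor, several cyclic AMP-responsive ones were lower in BMSC-CT. Of 14 tested, 7 fell and 0 rose by limma, beside 10.9% of all genes lower and 7.7% higher, with a list median log2 fold change of -1.53, and edgeR gave the same counts; at an unadjusted p under 0.05, 1 was higher and 8 were lower. Rgs2, which restrains G protein signalling and is induced by parathyroid hormone in osteoblasts, averaged 64.2 ± 12.9 normalized counts in BMSC-CT and 1685 ± 255 in BMSC-C (SD, n = 3 each; log2 fold change -4.70, SE 0.26, limma adjusted p = 0.000339). Nr4a2, an orphan nuclear receptor induced by cyclic AMP, averaged 77.5 ± 33.4 in BMSC-CT and 1254 ± 180 in BMSC-C (log2 fold change -4.08, SE 0.36, limma adjusted p = 0.00135). Crem, a cyclic AMP-responsive transcription factor, averaged 178 ± 51.3 in BMSC-CT and 914 ± 24.3 in BMSC-C (log2 fold change -2.39, SE 0.26, limma adjusted p = 0.00276). Prkar1a, a regulatory subunit of protein kinase A, averaged 2300 ± 174 in BMSC-CT and 5074 ± 115 in BMSC-C (log2 fold change -1.14, SE 0.17, limma adjusted p = 0.00808); its call was lost without BMSC-C replicate 1 (0.0505) or BMSC-C replicate 2 (0.0650). The ligand genes Pth and Pthlh were listed in neither table. In BF-D limma, edgeR and DESeq2 called 0 of 14, with 2 higher at an unadjusted p under 0.05, and limma without BF-D replicate 2 also called 0. Of 6 osteocyte genes, Sost, Dmp1 and Dkk1 were not listed for BMSCs and Mepe was too low to test. The 2 tested in BMSC-CT were both called lower, beside 10.9% of all genes. Fgf23 was called on few reads, with the losses of its call given above. Pdpn, a membrane glycoprotein of early osteocytes, averaged 5732 ± 1029 normalized counts in BMSC-CT and 12017 ± 1105 in BMSC-C (log2 fold change -1.08, SE 0.21, limma adjusted p = 0.0200). The Pdpn call was lost without BMSC-CT replicate 2 or any 1 BMSC-C library, with limma adjusted p between 0.0791 and 0.0999. In BF-D limma called 0 of the 2 osteocyte genes, with 0 at an unadjusted p under 0.05 and 0 by edgeR and DESeq2. The medians of all 7 lists in BF-D, cell type markers aside, lay between -0.28 and 0.04 on the log2 scale, where all genes tested had a median of -0.00.

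**Figure D4:**
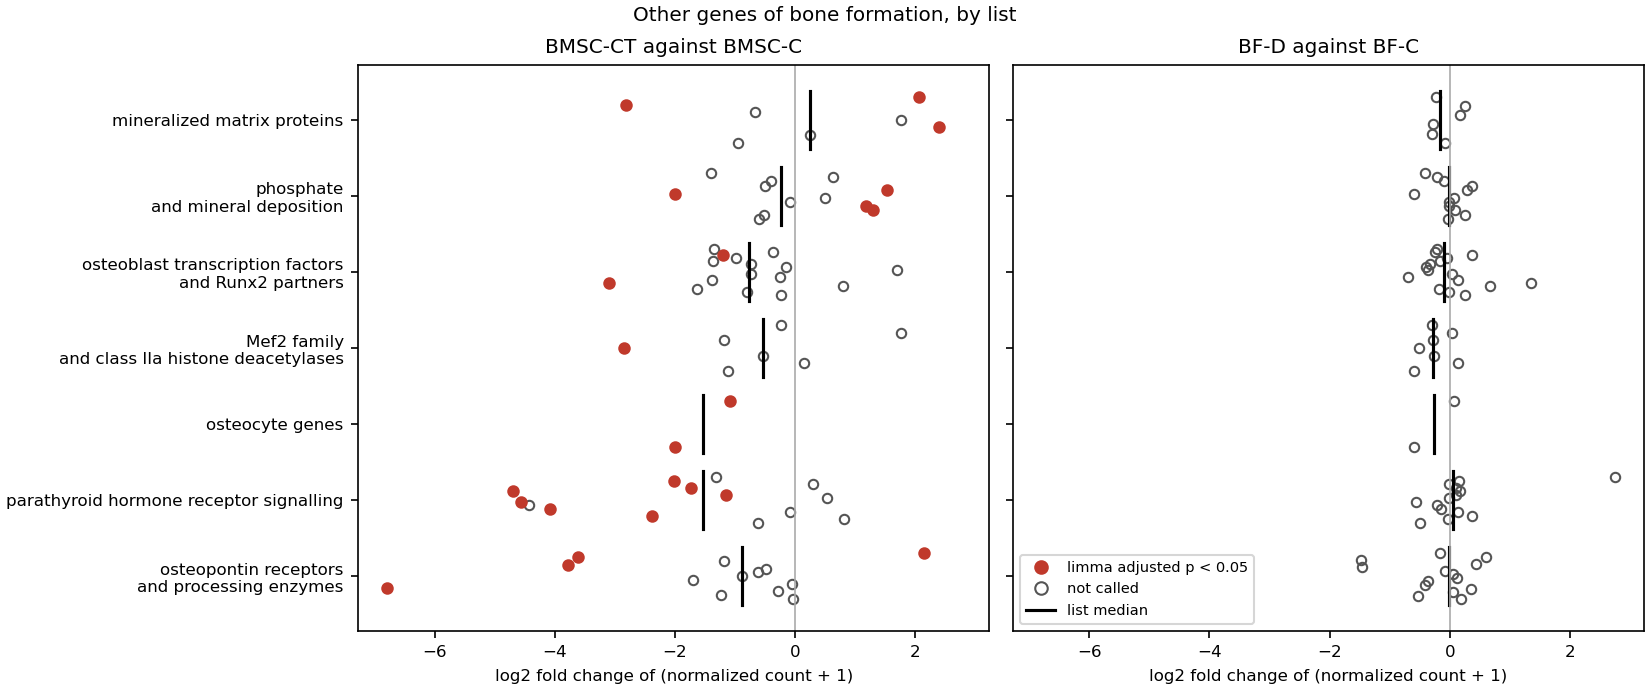
Log2 fold changes of normalized counts + 1 (horizontal axes) of the other genes in each list (rows), BMSC-CT against BMSC-C (left) and BF-D against BF-C (right); filled points passed limma's adjusted p under 0.05, open points did not, and vertical bars are list medians. On the left the parathyroid hormone receptor list has its median at -1.53 and 7 filled points left of 0, and on the right no point is filled.

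Of the 8 genes, 5 were abundant enough to fit in BMSC-CT and 7 in BF-D. In BMSC-CT limma called 2 of the 5 higher (Spp1 and Alpl) and 1 lower (Runx2), beside 18.6% of all 16818 genes tested; without BMSC-CT replicate 3 it called 2 higher and 3 lower, beside 43%. The calls of Spp1 and Runx2 were lost without BMSC-CT replicate 2 or any 1 BMSC-C library, and that of Alpl without BMSC-CT replicate 2 or BMSC-C replicate 1. Their groups did not overlap for 4 of 5, 2 higher and 2 lower, beside 52.2% of all genes, 23.3% higher and 28.9% lower. In BF-D it called 1 of 7 (Spp1, higher), beside 0.0117% of all genes, 0.00586% in each direction, and that gene was also the only one of the 7 whose groups did not overlap, beside 16.8% of all genes, 7.78% higher and 9.04% lower. Because the genes were picked with these values known, nothing is read from those counts.

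For each of the 5 genes that averaged at least 1 RPM, the genes with the most similar levels over the 12 libraries were sought among 12576 genes by Pearson correlation of log2(RPM + 1). The 12 libraries are 3 of each group, so these correlations take in differences between the 4 groups. Nearest to Spp1 were Slfn2 (r = 0.982), Rnf114 (0.977) and Pla2g7 (0.976), the last a phospholipase secreted by macrophages. Slfn2 averaged 353 ± 44.1 RPM in BMSC-CT and 315 ± 40.3 in BMSC-C, and 142 ± 18.2 in BF-D and 103 ± 5.52 in BF-C; its correlation with Spp1 was 0.753 over the 6 BMSC libraries and 0.957 over the 6 BF libraries. Nearest to Alpl were Cyp4b1 (0.977), Crabp2 (0.973) and Itm2a (0.973); the correlation of Crabp2, a retinoic acid-binding protein, was 0.965 over the BMSC libraries and 0.0813 over the BF libraries. Nearest to Runx2 were Jmjd1c (0.995), Ppp6r3 (0.992) and Dock4 (0.992), with Jmjd1c at 17.0 ± 10.3 RPM in BMSC-CT and 63.9 ± 13.4 in BMSC-C. Taf1d (0.984), Zfp160 (0.978) and AABR07042454.2 (0.977) were nearest to Mef2c. Dram2 (0.982), Prr15 (0.978) and Cd74 (0.972) were nearest to Pth1r, and Cd74, the invariant chain of antigen-presenting cells, averaged 7.73 ± 3.09 RPM in BMSC-CT and 70.6 ± 13.1 in BMSC-C.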

How the data were processed

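Each comparison has a gene table deposited by the authors, with 18616 genes for BMSCs and 19355 for BF cells, of which 17571 are in both. Per the file headers the signal values are normalized counts, 1 per gene and library, and 100% of them were whole multiples of what 1 read is worth in their library (tolerance 0.01), so reads were recovered. Gene lengths, log2 fold changes and p-values also stand in the deposited tables; fold changes and p-values printed here were computed anew, except KEGG gene counts, which are the authors'. Bowtie 0.12.2 and the mouse build mm8 are named, per the submitters' processing notes; the rat build and the counting step are not given in the sources used here, so promoters come from RefSeq GRCr8 and no coordinates of the tables are printed.

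Each comparison was fitted on its own table with limma 3.58.1 under R 4.3.3, with a mean-variance trend. The values were log2(normalized count + 1), genes had to average at least 1 normalized count, and a Benjamini-Hochberg adjusted p under 0.05 over all genes tested counts as called. An exact permutation test of 3 against 3 libraries cannot give a two-sided p under 0.1. Levels across tables are RPM, recovered reads scaled to 1000000 reads per library; where a group has 0 reads, 3 reads over the group set the limit. Alternatives used edgeR 4.0.16, DESeq2 1.42.0, limma-voom, other filters, pseudocounts and scalings, library weights, removal of the trend with gene length, a replicate block and each library left out. The fit was tested on simulated data. The 8 genes, the 7 pathway lists and the 4 marker lists were chosen with earlier results of these data known. Besides the 8 genes, up to 4 called genes with the smallest adjusted p per pathway list and the 3 genes most similar to each abundant member are named; markers, Cd44, Cbfb, the genes called only without BF-D replicate 2 and the second gene called in BF-D were singled out after their values were seen. No set test was run. 0 columns of per-sample values were left without a sample. Precision is limited by depth (15580310 to 19870047 reads per library), and read counts carry counting error only for the library they come from.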

Additional observations from a re-analysis of the deposited data

How the results depend on the processing

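The number of genes called between BMSC-CT and BMSC-C was 3134 (1295 higher, 1839 lower), 5504 with DESeq2 and 12357 with quality weights per library, whose estimation did not converge; leaving out 1 library gave 736 to 7204, the highest without BMSC-CT replicate 3. The split into higher and lower was 1929 and 1794 under quantile normalization, 787 and 1967 with scaling to total reads, and 2103 and 1804 with the length trend removed. Between BF-D and BF-C it was 2, but 72 with DESeq2, 125 with quality weights and 11 with the length trend removed, and leaving out 1 library gave 0 to 264, the highest without BF-D replicate 2. It was 0 with a mean of at least 10 (871 genes at an unadjusted p under 0.05), 0 with limma-voom (1082) and 0 with the replicate block (977). The fold changes of Spp1 ran from 0.66 to 1.14 in BMSC-CT and from 1.09 to 1.26 in BF-D. Spp1 in BMSC-CT fell short of the threshold with scaling to total reads, quantile normalization and without BMSC-CT replicate 2 or any 1 BMSC-C library. In BF-D it did so with a mean of at least 10, limma-voom, the block and each library left out except BF-D replicate 2. Runx2 fell short without BMSC-CT replicate 2, without any 1 BMSC-C library, with total reads and after removal of the length trend, and Alpl without BMSC-CT replicate 2 or BMSC-C replicate 1. Mef2c passed with total reads, DESeq2, quality weights and without BMSC-CT replicate 3, and Pth1r with quality weights and without that library. No called value of the 8 genes changed sign. The cause was not tested.

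Replicate numbers were not shown to pair the samples: deviations of same-numbered BMSC libraries correlated at 0.199, -0.0209 and 0.183, and those of BF libraries at 0.0140, 0.0196 and -0.00285. With the replicate block 3003 genes were called in BMSC-CT, 2497 of them shared with the fit without it, and 0 in BF-D; replicate 2 of BMSC-CT did not correlate best with its own number. Depth limits Sp7, Ibsp and Phex, which had at most 7 reads in a library.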
